A study of Mus musculus with 4 samples.

Results

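The urea cycle turns the ammonia released from amino acids into urea for excretion, and the liver is the organ that runs it in full. Cps1 and Otc act inside the mitochondrion, where ammonia and bicarbonate become carbamoyl phosphate and then citrulline. Ass1, Asl and Arg1 act in the cytosol, where citrulline takes up aspartate, releases fumarate and ends as urea and ornithine. Sds, Mat1a, Tat, Gls2 and Hal start the breakdown or conversion of single amino acids, and several enzymes of both kinds are known to follow fasting, glucagon and glucocorticoids in liver.

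The genes described here are those 10: Cps1, Otc, Ass1, Asl, Arg1, Sds, Mat1a, Tat, Gls2 and Hal. They were chosen by name, and their probes were found by the transcript that the array file lists for each spot. This gave 10 of the 23462 genes with a named probe, on 11 probes, since Gls2 has a pair. RNA came from whole liver of male mice that had been fasted before death, and was hybridized as Cy5-labelled cRNA to Agilent arrays, 1 array per group. The control group was natural aging mice. The other groups were all aging diabetic mice, which were given no treatment that the labels name, treated with metformin, a glucose-lowering biguanide, or treated with both astragalus polysaccharide (APS) and metformin. APS is a polysaccharide preparation of astragalus root. The titles carry the time 60 d for every group without saying what it counts. Strain, age, doses, how diabetes was brought about and whether an RNA came from 1 animal or several are not given in the sources used here. No group with APS alone is among these 4, so a difference between the APS plus metformin and metformin arrays stands for the combination against metformin.

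Because each group had 1 array, no test was run, and a difference below is one between a pair of arrays. Levels are log2 of the processed spot signal relative to the array's own 75th percentile, so 0 is the 75th percentile and each unit is a doubling. The error beside a difference combines the errors that the scanner software, Feature Extraction, gives for both spots. For the member probes brighter than 20000 units that error was a fixed 8.0% of the signal, which makes 0.16 log2 for a difference, and it covers the measurement of a spot, not the spread between mice. Counts of genes beyond 1 or 2 errors are given without the share of all genes beyond them. They describe the size of differences and are not tests. A gene is counted as higher or lower at a 2-fold difference, a log2 difference of 1.0 or more.

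The arrays shared 1 slide and 1 scan. Between 56.8% and 63.1% of the spots were well above background, with the natural aging array lowest and the metformin array highest. All 12 hepatocyte markers listed (Alb, Ttr, Apoa1 and others) were well above background on every array. So were all 10 macrophage and all 10 stellate and matrix markers, so passing this line does not by itself identify the tissue. The summed level of the hepatocyte markers, in multiples of the 75th percentile, was 258.9 for natural aging, 193.6 for aging diabetic, 154.5 for metformin and 192.9 for APS plus metformin. Pancreatic acinar markers, which liver should lack, summed to 86.4, 11.1, 21.3 and 5.42 in the same order, with 11, 11, 11 and 6 of 12 well above background and Ptf1a not so on any array. Lymphocyte markers summed to 2.58, 1.05, 5.50 and 1.27, with 7, 7, 8 and 7 of 10 well above background and the B cell gene Cd79a not so on any array. Stellate and matrix markers summed to 34.7, 20.3, 36.8 and 28.5, and macrophage markers to 54.7, 40.0, 45.6 and 30.5. In whole liver, fewer cells of a type and less RNA per cell cannot be told apart.

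The metformin array gave the lowest level of the 4 for each of the 10 genes, by 0.21 to 0.83 log2 against the aging diabetic array. The natural aging, aging diabetic and APS plus metformin arrays lay close together for most of them. By the probe that stands for the gene, none of the 10 differed by 2-fold between any pair of arrays on this scale. The lowest place of the metformin array held for 10 of 10 genes after normexp background correction, for 8 after cyclic loess and for 7 after quantile normalization.

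**Figure D1:**
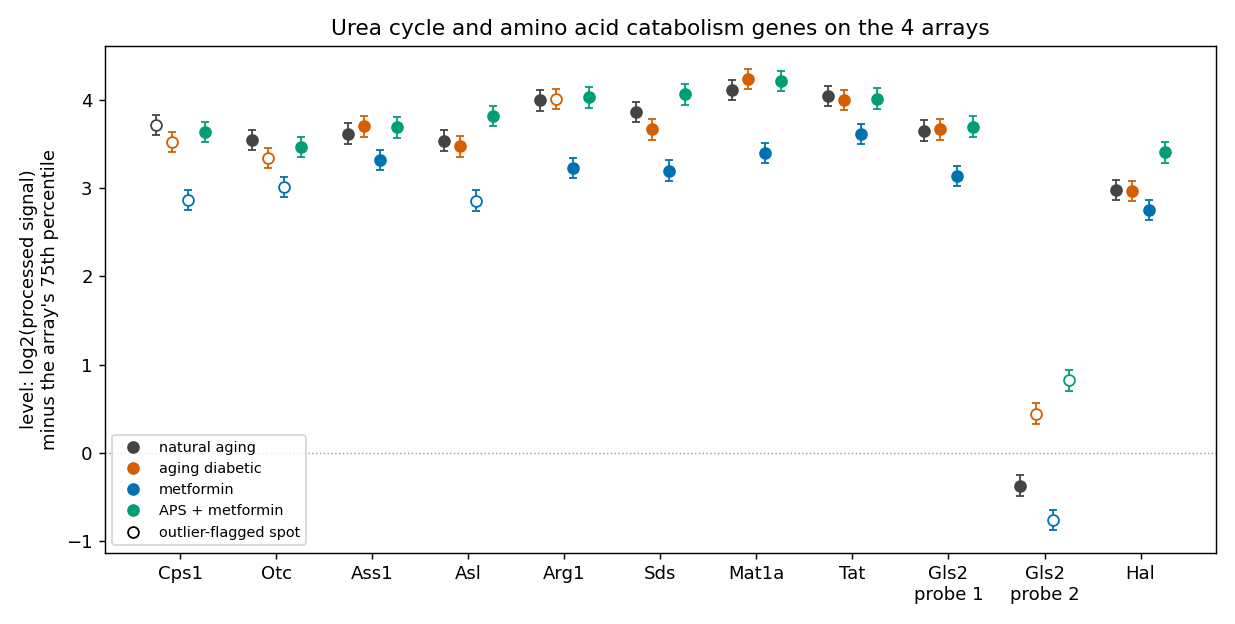
Level of every member probe on the 4 arrays, as log2 of the processed signal over the array's 75th percentile; points are single spots, bars their measurement error, and open points spots that the scanner software flagged as non-uniform. For the 10 probes that stand for the genes the metformin point is the lowest, and the second Gls2 probe lies below the others.

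All 11 probes were well above background on all 4 arrays and none was saturated. Processed signals of these probes ran from 2089 to 46559 for natural aging, 4182 to 57659 for aging diabetic, 2130 to 43896 for metformin and 6027 to 63187 for APS plus metformin. Non-uniform spots, whose pixels vary more than the software allows, were 1, 4, 4 and 1 of 11 in the same order. They were Cps1 on the natural aging, aging diabetic and metformin arrays, Otc on the aging diabetic and metformin arrays, Asl on the metformin array and Arg1 on the aging diabetic array. The second Gls2 probe was flagged on all but the natural aging array. These spots were kept, and 6 of the 10 genes, namely Ass1, Sds, Mat1a, Tat, Gls2 by its brighter probe, and Hal, had no flagged spot on any array.

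Cps1 encodes carbamoyl phosphate synthetase, which fixes ammonia and commits it to the cycle. Its level was 3.71 in natural aging, 3.52 in aging diabetic, 2.86 in metformin-treated and 3.63 in APS plus metformin-treated liver. The metformin array stood apart at the bottom, 1.58-fold under the aging diabetic array, and the aging diabetic, APS plus metformin and natural aging arrays followed each other within the error. In log2 the difference was -0.66 ± 0.16, and APS plus metformin minus metformin was 0.77 ± 0.16. Flags marked 3 of the 4 Cps1 spots as non-uniform, the metformin spot among them.

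Otc encodes ornithine transcarbamylase, which joins carbamoyl phosphate to ornithine. It read 3.55, 3.34, 3.01 and 3.46 in the order natural aging, aging diabetic, metformin, APS plus metformin. The order of the arrays was that of Cps1, with a narrower range of 0.54. The gap between metformin and aging diabetic was -0.33 and APS plus metformin minus metformin was 0.45, each with an error of 0.16.

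Ass1 encodes argininosuccinate synthase, which couples citrulline to aspartate. Levels of 3.62, 3.70, 3.31 and 3.69 made it the least variable of the 10 on this scale, with a range of 0.38. That rank depended on the scaling. After quantile normalization Otc (0.200), Tat (0.267) and Gls2 (0.375) had narrower ranges than Ass1 (0.388). After cyclic loess Tat (0.272) was narrower than Ass1 (0.313). The metformin array was the low one, and the others differed by no more than their errors from their neighbours. After quantile normalization and cyclic loess the natural aging array, not the metformin array, was lowest for Ass1.

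Asl encodes argininosuccinate lyase, which splits argininosuccinate into arginine and fumarate. Its levels were 3.54, 3.47, 2.86 and 3.81, the widest range of the 10 at 0.96, or 1.94-fold between the metformin and APS plus metformin arrays. Here the metformin array was low and the APS plus metformin array was also above both the natural aging array, by 0.28, and the aging diabetic array, by 0.34. The natural aging and aging diabetic arrays lay within the error of each other.

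Arg1 encodes the liver arginase that releases urea and returns ornithine to the cycle. Levels of 3.99, 4.01 and 4.03 on the natural aging, aging diabetic and APS plus metformin arrays lay within 1 error of each other, against 3.23 on the metformin array. Metformin minus aging diabetic was -0.78 and APS plus metformin minus metformin was 0.80, each ± 0.16. After normexp background correction the last difference was 1.06, past 2-fold.

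Sds encodes serine dehydratase, which makes pyruvate from serine and so feeds gluconeogenesis. It stood at 3.86, 3.66, 3.20 and 4.06. It was the only one of the 10 in which all neighbours in the order of levels (metformin, aging diabetic, natural aging, APS plus metformin) were further apart than the error. The gaps were 0.47 between metformin and aging diabetic and 0.20 at each of the next steps. APS plus metformin minus metformin was 0.86 ± 0.16.

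Mat1a encodes the liver form of methionine adenosyltransferase, which makes S-adenosylmethionine. Levels were 4.11, 4.23, 3.40 and 4.21. The metformin array was 1.78-fold below the aging diabetic array, the largest such difference among the 10 at -0.83 ± 0.16, and the other arrays lay within the error of their neighbours.

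Tat encodes tyrosine aminotransferase, the first step of tyrosine breakdown and a classic glucocorticoid-induced liver gene. It read 4.04, 4.00, 3.61 and 4.01. All arrays but the metformin array were within 0.05 of the natural aging value. The metformin array differed from the aging diabetic array by -0.38. After quantile normalization the natural aging array was the lowest for Tat, and after cyclic loess the metformin array still was.

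Gls2 encodes the liver-type glutaminase, which releases ammonia from glutamine. Its brighter probe (A_51_P169087) gave 3.65, 3.66, 3.14 and 3.69, with the natural aging, aging diabetic and APS plus metformin arrays within 1 error of each other. Metformin minus aging diabetic was -0.53 and APS plus metformin minus metformin was 0.56. The second probe (A_66_P121759), listed for another Gls2 transcript, gave -0.37, 0.45, -0.75 and 0.82. It differed from the first in size on both contrasts, with -1.20 for metformin minus aging diabetic and 1.58 for APS plus metformin minus metformin. It also differed where the first did not, at 0.82 for aging diabetic minus natural aging and 1.19 for APS plus metformin minus natural aging. The probes agree on the sign of metformin minus aging diabetic and of APS plus metformin minus metformin, and disagree on which pairs of arrays are 2-fold apart. Flags fell on 3 of the 4 spots of the second probe.

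Hal encodes histidine ammonia-lyase, which takes the ammonia off histidine. Levels of 2.98, 2.97, 2.75 and 3.40 set the APS plus metformin array apart at the top. That array was 0.42 above the natural aging and 0.44 above the aging diabetic array, and the latter pair did not differ beyond the error. The metformin array was 0.21 below the aging diabetic array, the smallest such gap of the 10, and its unscaled signal of 24161 was above that of the aging diabetic array, 23966. After quantile normalization and cyclic loess the natural aging array was the lowest for Hal.

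Of the 10 genes, 4 have a proximal promoter in the RefSeq promoter table for GRCm38.p6: Otc, Ass1, Tat and Hal. Their 250 bases before the listed start site are shown because the other members are not in that table. The RefSeq gene record begins right after the Ass1 and Hal windows, but within the Otc window and before the Tat window. The Tat window therefore lies inside the recorded gene. All 10 genes read lower on the metformin than on the aging diabetic array. These 4 had the smallest gaps, at -0.21 for Hal, -0.33 for Otc, -0.38 for Ass1 and -0.38 for Tat. A link between motifs and levels was not tested. Capitals mark every match, on either strand, to the motifs named after them.
Otc, chrX:10252055-10252304, + strand: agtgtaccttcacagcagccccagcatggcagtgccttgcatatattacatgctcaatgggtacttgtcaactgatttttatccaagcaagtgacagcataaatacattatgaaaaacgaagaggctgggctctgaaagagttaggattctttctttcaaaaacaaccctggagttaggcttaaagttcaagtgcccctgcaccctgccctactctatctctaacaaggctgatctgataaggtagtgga
Ass1, chr2:31470020-31470269, + strand: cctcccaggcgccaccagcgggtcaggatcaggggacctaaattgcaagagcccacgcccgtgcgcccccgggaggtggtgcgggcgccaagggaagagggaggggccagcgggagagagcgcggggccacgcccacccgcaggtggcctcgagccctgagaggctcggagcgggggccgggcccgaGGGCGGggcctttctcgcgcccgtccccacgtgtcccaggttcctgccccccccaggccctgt
Tat, chr8:109990186-109990435, + strand: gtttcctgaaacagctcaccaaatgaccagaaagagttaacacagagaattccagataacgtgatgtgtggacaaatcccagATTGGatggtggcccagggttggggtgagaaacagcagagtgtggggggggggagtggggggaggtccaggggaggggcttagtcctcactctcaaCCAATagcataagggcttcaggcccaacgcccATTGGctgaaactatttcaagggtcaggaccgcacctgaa
Hal, chr10:93488518-93488767, + strand: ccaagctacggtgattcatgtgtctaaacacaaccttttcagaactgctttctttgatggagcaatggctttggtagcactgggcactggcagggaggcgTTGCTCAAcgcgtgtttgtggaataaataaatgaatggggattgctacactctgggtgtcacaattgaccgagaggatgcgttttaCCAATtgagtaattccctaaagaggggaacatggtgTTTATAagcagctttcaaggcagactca
GC content was 43.6% for Otc, 75.6% for Ass1, 53.6% for Tat and 45.6% for Hal. The CCAAT box (CCAAT) occurs 3 times in the Tat and 1 time in the Hal window, and in 34.46% of 27025 promoter windows of the same length. The GC box (GGGCGG) occurs in the Ass1 window and in 32.94% of windows. Hal also holds the TATA box (TATAAA), found in 12.97%, and a C/EBP-type motif (TTNNGCAA), found in 9.55%. No window of the 4 holds a cAMP response half-site (TGACG, 17.86% of windows), a glucocorticoid receptor half-site (TGTTCT, 16.17%) or an HNF4-type motif (CAAAGTCCA, 0.38%). Otc has none of the motifs searched. These are matches of letters in a short window, and no motif is shared by all 4.

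The first comparison, aging diabetic minus natural aging, sets the array of diabetic mice with no named treatment against that of the control group. None of the 10 genes was 2-fold apart, where 14.0% of the 16005 genes compared were (8.03% higher and 6.01% lower). The median difference of the 10 was -0.03, against -0.04 over all genes compared, and the values ran from -0.21 for Otc to 0.12 for Mat1a. Signs were mixed, with 6 negative and 4 positive, and 7 of the 10 lay within 1 error of 0. Cps1 (-0.19), Otc (-0.21) and Sds (-0.20) were beyond 1 error and none was beyond 2. The direction depended on the scaling: after quantile normalization or cyclic loess, and in the authors' deposited series table, all 10 were above 0, with a median of 0.25 after quantile normalization. The 12 hepatocyte markers were all lower on the aging diabetic array, with a median of -0.41, and 10 of 12 were lower after quantile normalization. Their part in the result was not tested.

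Metformin minus aging diabetic addresses metformin treatment in the diabetic mice. All 10 genes were lower on the metformin array, each by more than 1 error and 8 of 10 by more than 2. Against the same error, quantile normalization left Hal (-0.08) within 1 error. Tat (-0.19), Otc (-0.20), Ass1 (-0.23) and Sds (-0.31) were then within 2, and the other genes stayed beyond 2. None was 2-fold apart, where 14.8% of 17110 genes were (3.39% lower and 11.4% higher). The median difference was -0.50 (1.41-fold), against -0.01 over all genes, of which 50.6% were below 0. Mat1a (-0.83), Arg1 (-0.78), Cps1 (-0.66) and Asl (-0.61) had the largest gaps, so members of both the mitochondrial and the cytosolic arm of the cycle were among them. Otc (-0.33) and Hal (-0.21) had the smallest. All 10 stayed below 0 after quantile normalization, cyclic loess and normexp, and in the series table. Leaving out flagged spots keeps only the 6 genes without one and leaves their values unchanged, so it cannot show what the flagged spots contribute. Without any scaling, 9 of 10 had the lower signal on the metformin array, Hal being the exception, and the median difference was -0.27. The 75th percentile that the scaling takes off was 3068 units on the aging diabetic and 3589 on the metformin array. The 12 hepatocyte markers were also all lower on that array, with a median of -0.34, and 9 of 12 were lower after quantile normalization. Lymphocyte, stellate and matrix marker sums were higher there, and the part of these shifts in the result was not tested.

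**Figure D2:**
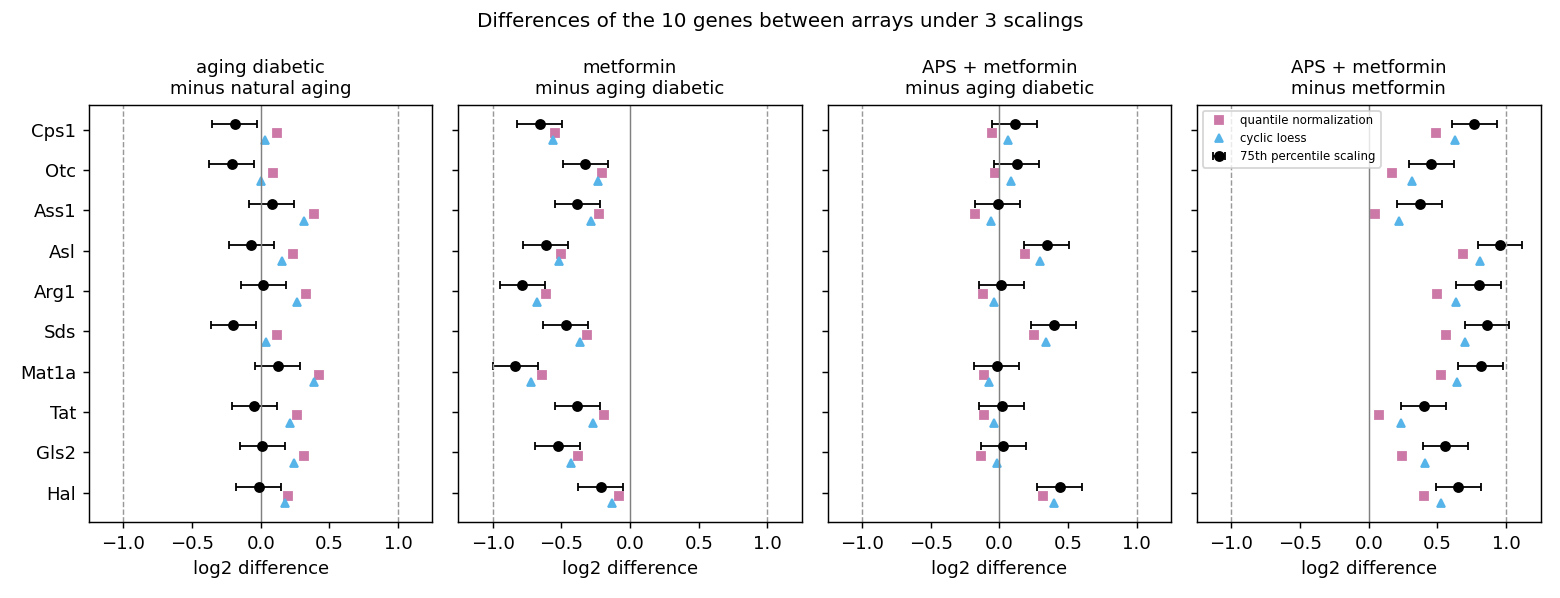
Log2 difference of each of the 10 genes between arrays in 4 comparisons; black points with measurement error bars use the 75th percentile scaling, squares quantile normalization and triangles cyclic loess, and dashed lines mark 2-fold. In metformin minus aging diabetic all 10 genes lie below 0, in APS plus metformin minus metformin all lie above 0, and in aging diabetic minus natural aging the side depends on the scaling.

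APS plus metformin minus metformin addresses what the combination adds to metformin. All 10 genes were higher on the APS plus metformin array by more than 2 errors, from 0.37 for Ass1 to 0.96 for Asl. Against the same error, quantile normalization left Ass1 (0.05) and Tat (0.08) within 1 error. Otc (0.17) and Gls2 (0.24) were then within 2, and the other genes stayed beyond 2. None was 2-fold apart, where 14.4% of 17135 genes were (2.41% higher and 12.0% lower). The median was 0.71 (1.64-fold), against -0.01 over all genes, of which 49.0% were above 0. Asl, Sds (0.86), Mat1a (0.82), Arg1 (0.80) and Cps1 (0.77) had the largest differences. All 10 were above 0 after quantile normalization, cyclic loess and normexp, and in the series table. They were also above 0 in the unscaled signal, with a median of 0.64. The 12 hepatocyte markers were all higher too, with a median of 0.32, and 10 of 12 were higher, with a median of 0.03, after quantile normalization. The 8 lymphocyte markers compared were all 2-fold lower, with a median of -1.87. Of 11 acinar markers compared, 10 were 2-fold lower, with a median of -3.28. The part of these shifts in the result was not tested. This comparison and the one before it share the metformin array, so the opposite signs are not separate observations.

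APS plus metformin minus aging diabetic addresses the combination in the diabetic mice. None of the 10 was 2-fold apart, where 11.1% of 16269 genes were (4.38% higher and 6.76% lower). The median was 0.07, against 0.02 over all genes, and 7 of 10 lay within 1 error of 0. Hal (0.44), Sds (0.39) and Asl (0.34) were higher on the APS plus metformin array by more than 2 errors, and their values were 0.32, 0.25 and 0.18 after quantile normalization. The hepatocyte marker median was -0.00, and 6 of the 12 were higher, or 3 after quantile normalization.

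Against the natural aging array, the metformin array was lower for 10 of 10 genes, with a median of -0.60. None was 2-fold apart, where 17.4% of 17090 genes were (4.69% lower and 12.7% higher). Cps1 (-0.85), Arg1 (-0.77), Mat1a (-0.71), Asl (-0.68) and Sds (-0.66) led. Without any scaling, 8 of 10 were lower, with a median of -0.19, and Ass1 and Hal were higher. Ass1, Tat and Hal turned to the higher side after quantile normalization, which left 7 of 10 lower. The hepatocyte marker median was -0.71. For APS plus metformin minus natural aging the median was 0.06, with 7 of 10 positive, and 10 of 10 after quantile normalization. None was 2-fold apart, where 12.7% of 16173 genes were (6.18% higher and 6.55% lower). Hal, at 0.42, was the only one beyond 2 errors. Hepatocyte markers lay on the other side, with a median of -0.35.

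Over all 4 arrays the ranges of the 10 genes had a median of 0.73. The 14241 genes that were well above background on every array had a median range of 0.67, and 28.57% of them spanned 2-fold or more, against none of the 10 by their standing probes. Those genes were not matched for brightness, while the standing probes of the 10 were bright, with levels from 2.75 to 4.23. The dimmer Gls2 probe did pass 2-fold, at 1.58 for APS plus metformin minus metformin. Whether brightness narrows the ranges was not tested. Asl had the widest range, and the genes whose profiles over the 4 arrays lay nearest to its own were Scnn1a, at a distance of 0.04 log2, Cyp27a1 (0.06), Zfp85 (0.08), Dzip1l (0.08) and Tbrg4 (0.09). Cyp27a1 is a mitochondrial bile acid enzyme and Scnn1a a sodium channel subunit. With 4 arrays such a likeness rests on 4 points per gene.

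**Figure D3:**
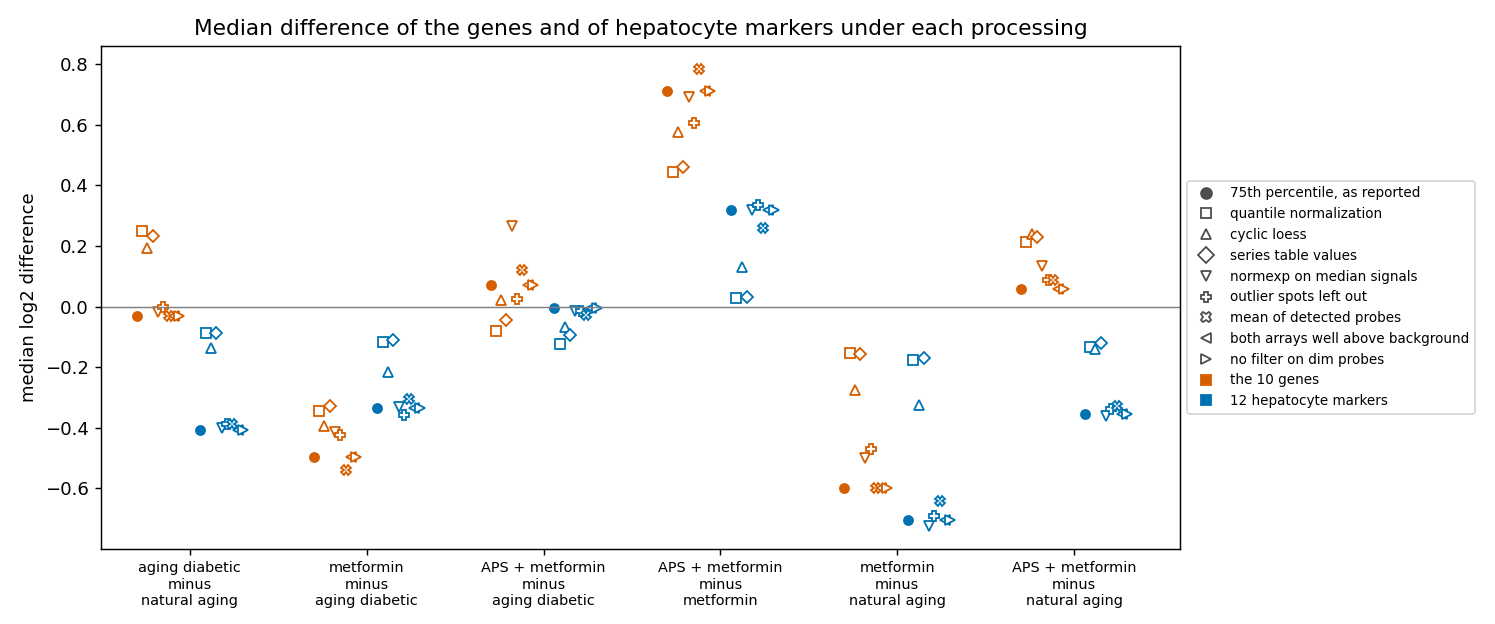
Median log2 difference of the 10 genes (orange) and of the 12 hepatocyte markers (blue) in the 6 comparisons under 9 processings, the reported one filled. The medians of the 10 genes stay below 0 in metformin minus aging diabetic and above 0 in APS plus metformin minus metformin, and cross 0 in aging diabetic minus natural aging and in APS plus metformin minus aging diabetic.

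The wider pathway was read from a list of 119 other genes of nitrogen disposal, amino acid breakdown and their regulators, of which 118 could be compared. In metformin minus aging diabetic, 94 of 118 were below 0 with a median of -0.17, 2 were 2-fold higher and 4 were 2-fold lower. Over all genes compared there, 50.6% were below 0, 11.4% were 2-fold higher and 3.39% were 2-fold lower. In APS plus metformin minus metformin, 99 of 118 were above 0 with a median of 0.32, 4 were 2-fold higher and 1 was 2-fold lower. Over all genes compared there, 49.0% were above 0, 2.41% were 2-fold higher and 12.0% were 2-fold lower. Quantile normalization brought the counts of the list to 73 of 118 below 0, with a median of -0.04, and 75 of 118 above 0, with a median of 0.08. Aging diabetic minus natural aging had 2 higher and 1 lower (8.03% and 6.01% of all genes). The median of the list there was -0.15, and 0.07 after quantile normalization. APS plus metformin minus aging diabetic had 3 higher and 4 lower (4.38% and 6.76% of all genes), with a median of 0.15. Against natural aging, metformin had 3 higher and 3 lower (12.7% and 4.69% of all genes). APS plus metformin had 5 higher and 3 lower (6.18% and 6.55%). The all-gene shares below or above 0 apply to the pathway groups below as well.

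**Figure D4:**
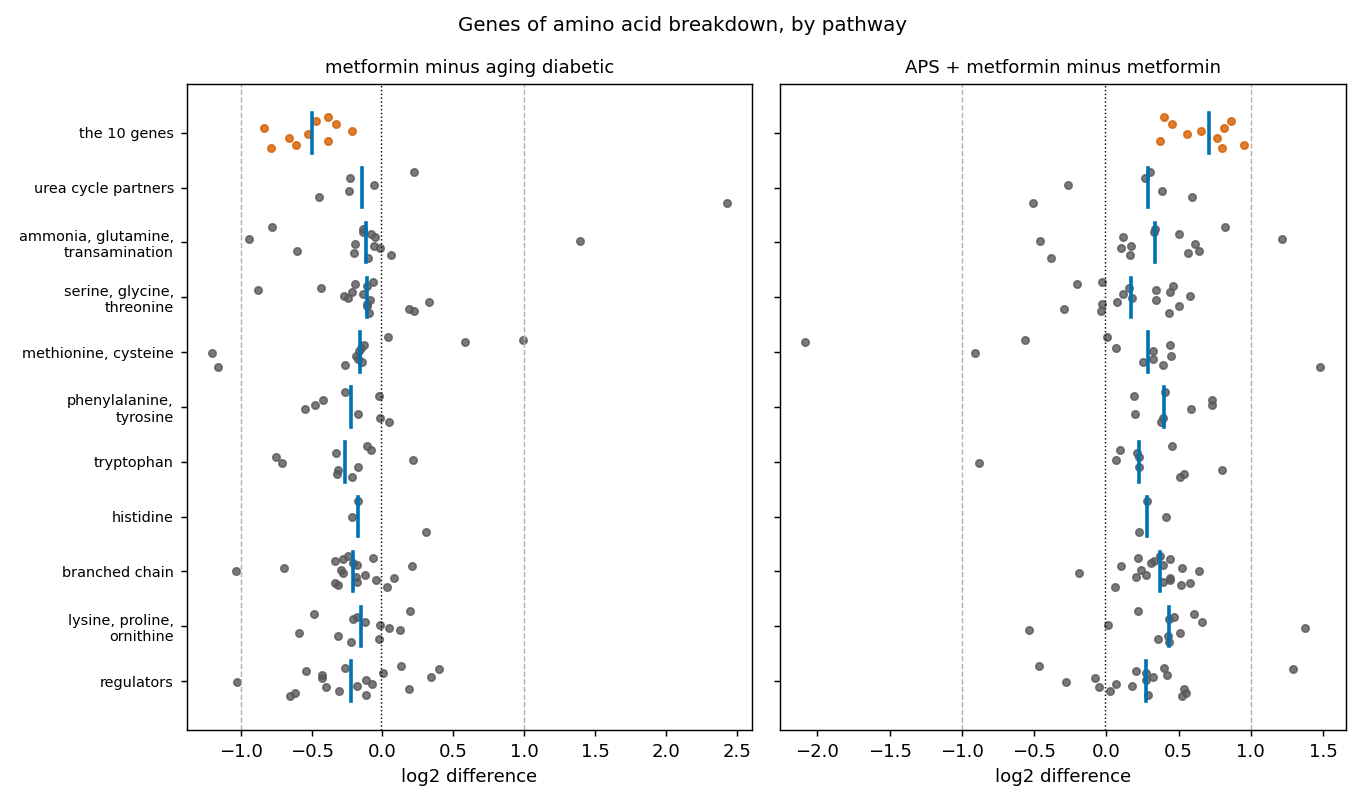
Log2 differences of the 10 genes and of the 10 groups of other amino acid genes in 2 comparisons; each point is a gene, blue bars are group medians, the dotted line is the median over all genes compared and dashed lines mark 2-fold, with a gene that was dim on 1 array at its bound. The group medians lie below 0 in metformin minus aging diabetic and above 0 in APS plus metformin minus metformin, nearer to 0 than the median of the 10 genes.

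Around the cycle itself, Nags makes the activator that Cps1 requires. It stood at 2.02, 2.13, 1.89 and 2.28 in the order used above, with gaps of -0.24 for metformin minus aging diabetic and 0.39 for APS plus metformin minus metformin. Slc25a15, the mitochondrial ornithine carrier, was on the other side of 0 at 0.22 for metformin minus aging diabetic, and 2 of its 4 spots were flagged. Slc7a2, a transporter of arginine and other cationic amino acids, read 2.69, 2.67, 1.89 and 2.72, which again placed the metformin array lowest, at -0.78. Of the 7 genes listed as partners of the cycle, 6 were compared in that contrast, 4 below and 2 above 0, and Arg2 alone was past 2-fold. Arg2, the mitochondrial arginase, was dim, at -3.83 for natural aging, -2.31 for metformin and -2.82 for APS plus metformin. It was not well above background on the aging diabetic array, which makes it at least 5.37-fold higher on the metformin array and at least 3.77-fold higher on the APS plus metformin array than there, with an error of 0.41 log2 in both. These bounds depend on the processing: the differences of 2.43 and 1.92 log2 were as small as 1.72 and 1.33 under another one. Nags, Slc25a15, Slc7a2 and the other genes named without a 2-fold difference were chosen after their values were seen.

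Slc14a1, a urea transporter, was dim, at -3.36 for natural aging, -4.51 for aging diabetic and -4.57 for metformin, and not well above background on the APS plus metformin array. It was 2.21-fold lower on the aging diabetic and 2.30-fold lower on the metformin than on the natural aging array, and at least 2.76-fold lower on the APS plus metformin array, with errors of 0.35, 0.33 and 0.63 log2. The first and the second of these differences, -1.14 and -1.20 log2, each fell short of 2-fold under 1 other processing, at -0.87 and -0.96. For the bright genes of the wider list the error of a difference was 0.16, as for the 10. Rhbg, an ammonia transporter, was 0.85, 1.09, 2.49 and 2.03, and so was 2.62-fold higher on the metformin than on the aging diabetic array, with the APS plus metformin array also high. Slc1a2, a glutamate transporter, was 2.09, 2.65, 1.71 and 2.93, lowest on the metformin array, and 2.33-fold higher on the APS plus metformin array than there. Glul, which makes glutamine in the cells around the central vein, was 3.76, 3.37, 3.17 and 3.74. Glud1, glutamate dehydrogenase, differed by 0.06 between the metformin and aging diabetic arrays, within the error. Of the 14 genes of ammonia, glutamine and transamination, 12 were below 0 in metformin minus aging diabetic and 12 above 0 in APS plus metformin minus metformin, and after quantile normalization 6 and 8.

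Downstream of Mat1a, Ahcy hydrolyses the S-adenosylhomocysteine left by methyl transfer. Its levels were 2.47, 2.51, 1.35 and 2.83. The metformin array was the low one, 2.24-fold under the aging diabetic and 2.79-fold under the APS plus metformin array. Csad, which makes hypotaurine on the way to taurine, was 3.68, 3.66, 2.46 and 1.55. It was 2.30-fold lower on the metformin and 4.31-fold lower on the APS plus metformin array than on the aging diabetic array, so it did not share the higher level of the 10 genes on the combination array. Gnmt, a major user of S-adenosylmethionine, had -0.27 and 0.58 in metformin minus aging diabetic and APS plus metformin minus metformin. Of the 12 genes of methionine and cysteine, 9 were below 0 in the first of these contrasts and 9 above 0 in the second, and after quantile normalization 9 and 7.

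Downstream of Tat lie Hpd and Fah. Between metformin and aging diabetic the difference was -0.48 for Hpd and 0.04 for Fah, and APS plus metformin minus metformin was 0.73 and 0.38. Neither was 2-fold apart, and the 8 genes of phenylalanine and tyrosine had 7 of 8 below 0 in the first contrast, with a median of -0.22, and 8 of 8 above 0 in the second, with a median of 0.40. After quantile normalization these counts were 5 and 6 of 8. After Hal in histidine breakdown come Uroc1 and Ftcd, with -0.18 and -0.22 in metformin minus aging diabetic and 0.28 and 0.42 in APS plus metformin minus metformin, and the values of Uroc1 changed sign under 2 of the other processings. Sdsl, a relative of Sds, had levels of 2.21, 2.63, 1.75 and 2.10, a gap of -0.88 between metformin and aging diabetic. The 16 genes of serine, glycine and threonine had 13 below 0 there, with a median of -0.11, and 7 below 0, with a median of 0.02, after quantile normalization.

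Branched chain breakdown had 16 of 19 genes below 0 in metformin minus aging diabetic, with a median of -0.20, and 18 of 19 above 0 in APS plus metformin minus metformin, with a median of 0.37. After quantile normalization these were 15 and 13 of 19. Dbt, a core subunit of the branched chain ketoacid dehydrogenase, was 2.45, 2.50, 1.47 and 2.11, 2.04-fold lower on the metformin than on the aging diabetic array, and 3 of its 4 spots were flagged non-uniform. Its difference was as small as -0.49 under other processings and stayed under 2-fold in 4 of them. Dhtkd1, of lysine breakdown, was dim at -3.83, -3.93 and -3.89 on the other arrays and -2.51 on the APS plus metformin array, 2.68-fold above the aging diabetic array. Acmsd, which directs tryptophan carbon away from NAD, was 1.11, 1.97, 1.66 and 2.20, lowest on the natural aging array, from which the APS plus metformin array differed 2.13-fold. That difference of 1.09 log2 was 0.93, under 2-fold, under 1 other processing, and 1 of the 4 Acmsd spots was flagged. Ido2, of tryptophan breakdown, was 2.36, 2.51, 1.80 and 0.92 by its brighter probe, 3.01-fold lower on the APS plus metformin than on the aging diabetic array. Its other probe differed by 0.03 between those arrays, and with the probes averaged the difference was -0.78, under 2-fold.

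Among 18 regulators, Ppargc1a, a coactivator of gluconeogenic genes in fasting, was 1.12, 0.97, 1.37 and 2.66. The APS plus metformin array stood above the others, 3.23-fold (1.69 log2) over the aging diabetic and 2.45-fold (1.29 log2) over the metformin array. The second probe gave larger differences, 2.71 and 1.79 log2, for the same contrasts. Cebpa, a C/EBP factor of differentiated hepatocytes, had levels of 1.31, 1.01, 0.35 and 0.88, lowest on the metformin array without a 2-fold difference. Gcgr, the glucagon receptor, was 3.44, 3.12, 3.04 and 3.11, with the arrays of diabetic mice within the error of each other. Regulators had 13 of 18 below 0 in metformin minus aging diabetic and 14 of 18 above 0 in APS plus metformin minus metformin, and after quantile normalization 10 and 12.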

How the data were processed

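Per the file headers, the deposited array files hold spot intensity in the red channel, background-subtracted and detrended by Feature Extraction. Its version is 10.7 per the labels and 11.5.1.1 per the headers. The other deposited columns used, per the file headers, are flags (other unit: 0 or 1) for spots well above background, outliers and saturation, an error of the signal, and median signals. The authors' deposited series table holds log2 values by an unstated normalization, and its columns all have a median of 7.84. Its differences from the quantile-normalized values here had a standard deviation of 0.0041 to 0.0051 log2 on each array. The series table and quantile normalization are therefore not separate checks.

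Intensity was put on a log2 scale, less the 75th percentile of non-control spots on its array. Spots of a probe were averaged, outlier spots kept, and the probe with the highest mean signal stood for a gene. Transcript accessions were matched to RefSeq symbols: 33767 probes had one and 22838 had none. Comparison required a gene to be well above background on 1 array of the pair or both; a dim side was set to its own signal or to the array's lowest signal so flagged, whichever was higher. With 1 array per group no test was run. The procedure was tested on simulated data that held spot error and planted changes larger than 2-fold. Those data held no spread between mice, so they do not show how reliable a comparison of single arrays is. The software was Python 3.11.15, pandas 2.3.3, and R 4.3.3 with limma 3.58.1 for quantile normalization, cyclic loess and normexp with an offset of 50.

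Named genes are the 10, the genes of the wider list past 2-fold, and the 5 profiles nearest to the gene with the widest range; others are marked, and a few named by the rule are not reported here. Cell types are given by marker lists. Members and lists were chosen with earlier results of these data known. Promoter sequences are from RefSeq, GRCm38.p6; the array design names mm9, so no gene positions are given.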

Additional observations from a re-analysis of the deposited data

How the results depend on the processing

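Every comparison was repeated under 8 other processings. In metformin minus aging diabetic and APS plus metformin minus metformin the median of the 10 genes kept its sign under all of them. Not all 8 could move it. Requiring both arrays above background, or no filter on dim probes, left all 60 member differences unchanged. Leaving out flagged spots left the values of 6 genes unchanged, and averaging probes can change Gls2 only. The series table is close to quantile normalization, so the distinct ones are quantile normalization, cyclic loess and normexp. Medians that moved by more than 1 error were those of aging diabetic minus natural aging, 0.25 after quantile normalization, 0.19 after cyclic loess and 0.23 in the series table, and those of metformin minus natural aging, -0.15, -0.27 and -0.16 in the same order. Metformin minus aging diabetic moved to -0.33 in the series table, and APS plus metformin minus metformin to 0.44 after quantile normalization and 0.46 in the series table. APS plus metformin minus natural aging moved to 0.24 after cyclic loess and 0.23 in the series table, and APS plus metformin minus aging diabetic to 0.27 after normexp. In APS plus metformin minus metformin, 2 genes were 2-fold higher after normexp (Asl 1.05, Arg1 1.06) and 1 with the probes of a gene averaged (Gls2 1.07). The cause was not tested.

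Leaving out flagged spots left 6 of the 10 genes. Normexp used spot medians, chosen after seeing the data; normexp on mean signals was not run. No paired analysis was possible because each group has 1 array, and 1 array per group limits precision. Arg2, Slc14a1 and Dhtkd1 were dim, which limits their values. All 10 genes were bright by their standing probes, and whether that narrows their differences was not tested. Counts past 2-fold in the wider list that moved by over 1.5 times were as follows. In APS plus metformin minus metformin, the lower count of 1 became 2, or 3 in the series table, under 6 of the processings, and the higher count of 4 became 8 with probes averaged. In metformin minus natural aging, the lower count of 3 became 1 after quantile normalization, cyclic loess and in the series table, and 5 with probes averaged. In metformin minus aging diabetic, the lower count of 4 became 2 in the series table and the higher count of 2 became 1 with both arrays required above background. Normexp left 0 lower, against 1, in aging diabetic minus natural aging and 2 higher, against 5, in APS plus metformin minus natural aging.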
